A study of Mus musculus with 4 samples.

Results

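The genes described here carry tryptophan to nicotinamide adenine dinucleotide (NAD) in the liver. They are Tdo2, Afmid, Kmo, Kynu, Haao, Acmsd, Qprt, Naprt, Nampt and Nadsyn1, chosen by name for their place in the pathway. The choice was made with earlier results of these data known. All 10 were found once each among the 54532 genes of the deposited count table. The series holds 4 mouse liver libraries of 1 group, labelled as a liver-specific knockout of Cpt1a, the enzyme that lets long-chain fatty acids into mitochondrial oxidation, and taken after a 24 h fast. Other groups are reached only through 3 comparison tables of the authors, whose headers name the knockout group Cpt1a_AlbCre, a further group Cpt2_AlbCre and a reference group Rab30Cpt2_f. Per the design text the controls were littermates, and mice lacking Cpt1a or Cpt2 and controls were all fasted for 24 h. AlbCre stands in the knockout headers for Cre recombinase under the albumin promoter, which is active in hepatocytes. Other liver cells may keep the gene, and which cells lost it was not examined here. The sources used here do not give the meaning of the reference name, whether those mice carry floxed alleles, or the age, sex and strain.

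The de novo route starts when TDO2 opens the ring of tryptophan in hepatocytes, and the kynurenine formed is then hydroxylated, cleaved and opened to an unstable intermediate. That intermediate closes by itself to quinolinate, which QPRT turns into a nucleotide precursor of NAD, unless ACMSD takes it away towards complete oxidation. NAD can also be made from nicotinic acid, by NAPRT and NADSYN1, and from nicotinamide, by NAMPT. In the fasting liver Tdo2 is known as a target of glucocorticoids, and Acmsd as a gene that responds to diet and hormones.

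The libraries held 13138884 to 14116441 counts, and 8.79 to 10.9% of these fell on mitochondrial genes. Cpt1a was at 24.4, 28.6, 31.1 and 36.9 FPKM (fragments per kilobase of gene and per 1000000 fragments) in livers 1 to 4, and 6.91-fold lower than in the reference group in the authors' deposited table (adjusted p = 5.27e-51). In the Cpt2_AlbCre group the Cpt2 transcript stood at −0.07 on the log2 scale (adjusted p = 0.837) in the authors' deposited table, so the level of this transcript does not check that label. That group is called the Cpt2 group here. Nothing in the labels says that the 4 libraries come from separate mice, so the SD given here may be technical.

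The 300-base RefSeq promoter windows (GRCm38.p6, from 250 bases before to 50 after the start site) were used for 7 members. Those of Haao, Tdo2 and Afmid are printed because these 3 genes passed the threshold in all 3 comparisons, which was known when they were chosen. Each is written 5′ to 3′ in the direction of the gene, and capitals mark matches to AGGTCA, the core bound by many nuclear receptors, on either strand (TGACCT is its other strand).
Haao: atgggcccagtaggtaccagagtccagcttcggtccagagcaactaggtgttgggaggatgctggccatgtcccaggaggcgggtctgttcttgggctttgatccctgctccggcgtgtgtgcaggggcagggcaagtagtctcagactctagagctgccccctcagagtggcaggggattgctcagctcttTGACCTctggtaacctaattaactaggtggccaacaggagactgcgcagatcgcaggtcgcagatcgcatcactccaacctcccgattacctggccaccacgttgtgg
Tdo2: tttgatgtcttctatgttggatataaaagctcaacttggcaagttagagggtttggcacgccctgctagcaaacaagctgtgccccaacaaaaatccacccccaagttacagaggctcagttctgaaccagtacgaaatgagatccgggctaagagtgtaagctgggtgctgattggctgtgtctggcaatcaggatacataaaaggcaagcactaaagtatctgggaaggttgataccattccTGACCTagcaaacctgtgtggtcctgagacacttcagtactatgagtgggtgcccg
Afmid: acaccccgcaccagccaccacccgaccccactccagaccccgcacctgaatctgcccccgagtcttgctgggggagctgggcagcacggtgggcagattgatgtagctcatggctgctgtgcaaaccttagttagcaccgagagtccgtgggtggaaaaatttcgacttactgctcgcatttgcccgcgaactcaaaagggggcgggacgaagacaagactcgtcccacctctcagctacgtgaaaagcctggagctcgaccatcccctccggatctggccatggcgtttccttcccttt
The window of Haao lies at chr17:83846741-83847040 on the minus strand. That of Tdo2 lies at chr3:81975679-81975978 on the minus strand, and that of Afmid at chr11:117825669-117825968 on the plus strand. The match begins 58 bases before the start in Haao and 6 bases before it in Tdo2, and the Afmid window has none. Among the 7 members with a window, 3 held AGGTCA (the other was Nampt), against 16.3% of 32851 windows. A direct repeat of AGGTCA with 1 base between (AGGTCANAGGTCA) was in 0 of the 7, against 0.0396% of all windows. TGTTCT, a core bound by the glucocorticoid receptor, was in 2, against 19% of windows. It begins 14 bases after the start in Kmo and 164 bases before it in Haao. GCGTG, the core bound by the aryl hydrocarbon receptor (AHR), was in 3 (Tdo2, Haao and Nampt), against 32.4%. GTTAAT, bound by HNF1, was in Haao only (7.1% of windows). TATAAA, the letters of a TATA box, was in Tdo2 only (13.6%), and begins 229 bases before the RefSeq start there. All motifs were searched on both strands, and AGGTCA and its repeat overlap. G and C made up 47.7% of the window of Tdo2, 58.7% of that of Haao and 59.7% of that of Afmid, against a median of 52.7%. A match is a run of letters and no shown binding site. All 7 windows are placed by the RefSeq start, not by the start of the gene models given below. The RefSeq start lay 11812 bases inside the gene model for Kmo, 790 for Nampt, 474 for Tdo2 and 197 for Qprt.

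In the Cpt1a knockout livers all 10 genes were detected in each library, and their levels per length of gene spanned from 762 ± 94.3 FPKM for Tdo2 to 2.42 ± 0.705 FPKM for Acmsd (SD, n = 4 each). Tdo2 lay above 99.8% of the 24074 genes with any reads, and Acmsd above 66.8%. Between them, Haao was at 113 ± 28.0, Kmo at 57.2 ± 8.77, Naprt at 41.4 ± 7.33, Qprt at 37.7 ± 5.28 and Nampt at 24.0 ± 3.45 FPKM (SD, n = 4 each). Kynu was at 14.6 ± 2.52, Afmid at 12.3 ± 1.92 and Nadsyn1 at 8.16 ± 0.451 FPKM (SD, n = 4 each). Along this order the ranges over livers overlapped for Kmo and Naprt, for Naprt and Qprt and for Kynu and Afmid, and the gene with the higher mean was above its neighbour in 3 of the 4 livers in each of these pairs. The other neighbours did not overlap. The place of Haao rests on its gene model, which is 1222 bases long in the files and 4681 bases in GENCODE M21. With the longer model Haao would be at 29.4 ± 7.32 FPKM (SD, n = 4) and move from place 2 to place 5.

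**Figure D1:**
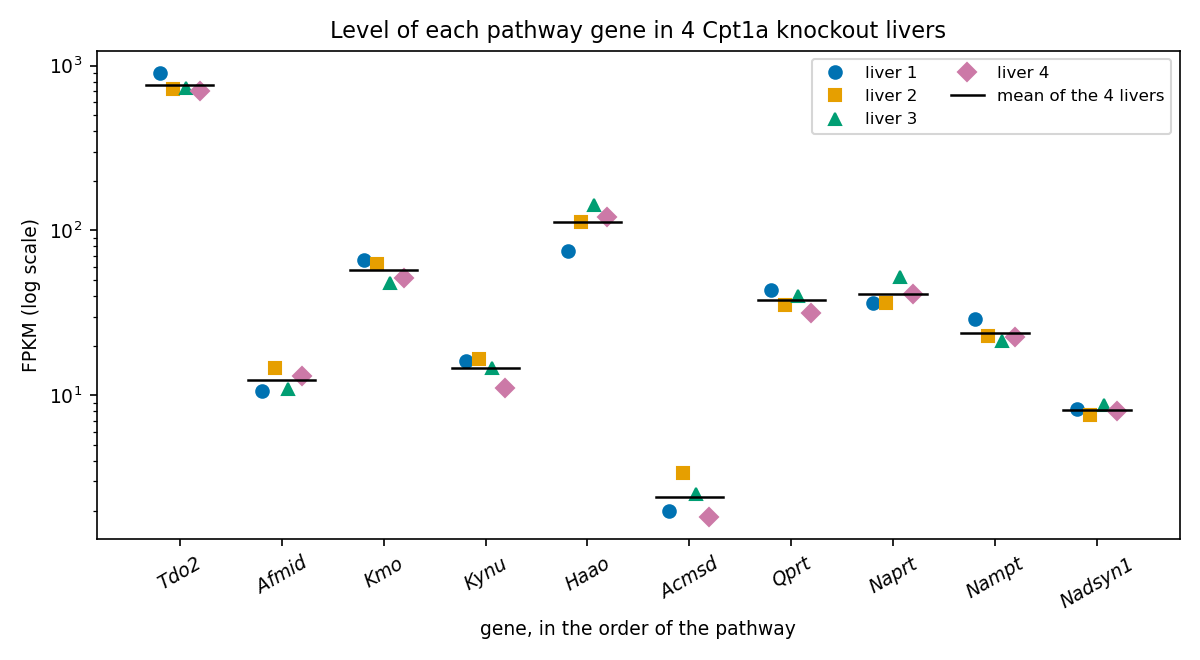
FPKM (log scale) of the 10 genes, in the order of the pathway, in each of the 4 Cpt1a knockout livers (symbols) with the mean (line). Tdo2 is at 699 FPKM or above in every liver and Acmsd at 3.38 FPKM or below in every liver.

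Against the reference group, 7 of the 10 genes were lower and 0 higher in the Cpt1a knockout in the authors' deposited table (authors' adjusted p below 0.05, called lower or higher here). The 7 were Tdo2, Afmid, Kmo, Kynu, Haao, Acmsd and Qprt. Over all of about 16862 genes tested in that table, 7.60% were called lower and 6.81% higher, 14.4% in all. Of the members, 8 were lower and 0 higher at an unadjusted p below 0.05. In the Cpt2 group 7 of the 10 were lower and 0 higher in the authors' deposited table, where 10.7% of 17475 genes were called lower and 10.3% higher (21.0% in all), and at an unadjusted p below 0.05 the counts were 8 and 0. Those 7 were Tdo2, Afmid, Kmo, Kynu, Haao and Acmsd again, with Nampt in place of Qprt. Both tables use the same reference group, so the 6 shared calls are not independent. Over all genes 698 were called lower in both tables. These compare with 1282 called lower of about 16862 tested for the Cpt1a knockout, and 1868 of 17475 for the Cpt2 group. The median log2 fold change of the members was −0.70 in the Cpt1a knockout (summed from the other comparisons) and −0.98 in the Cpt2 group, and that of the 13791 genes averaging 10 counts or more was 0.00 and −0.01.

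The table that sets the Cpt1a knockout directly against the Cpt2 group tests the difference between these 2 groups, and it shares a group with each of the other tables. There 5 members were higher in the Cpt1a knockout (Tdo2, Afmid, Haao, Acmsd and Nampt) and 1 lower (Nadsyn1) in the authors' deposited table. The background of that table was high, with 14.2% of 17755 genes called higher and 14.6% lower, 28.8% in all. Afmid (1.83), Haao (1.39) and Acmsd (1.87) differed most on the log2 scale in the authors' deposited table. For these 3 genes the fall against the reference group was thus larger in the Cpt2 group.

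**Figure D2:**
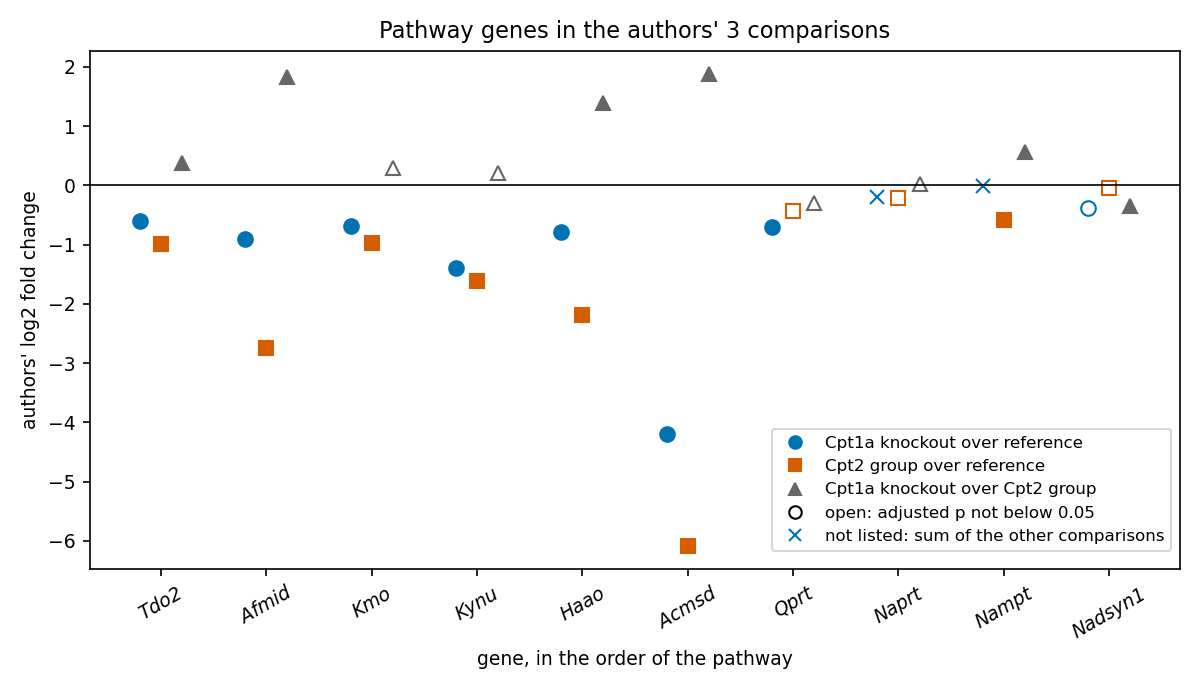
Authors' log2 fold change of the 10 genes in 3 comparisons: Cpt1a knockout over reference (circles), Cpt2 group over reference (squares) and Cpt1a knockout over Cpt2 group (triangles). Filled symbols have an adjusted p below 0.05, and crosses mark the 2 genes not listed in the partial Cpt1a table, drawn at the sum of the other comparisons. Acmsd lies lowest against the reference group in both, at −4.20 and −6.09.

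Tdo2 (ENSMUSG00000028011, chromosome 3, 81957090 to 81976202, minus strand, GRCm38 as in the files), tryptophan dioxygenase, makes the entry to the pathway. Its FPKM was 903 in liver 1, 719 in liver 2, 728 in liver 3 and 699 in liver 4, from 41976 to 52579 counts. Liver 1 was high and the other livers lay close together. Ctso, a cathepsin gene 364 bases away on the opposite strand, stood at −0.10 in the Cpt2 group (adjusted p = 0.763) in the authors' deposited table. Tdo2 was 1.51-fold lower in the Cpt1a knockout (log2 fold change −0.60, adjusted p = 0.00710) and 1.99-fold lower in the Cpt2 group (−0.99, adjusted p = 3.03e-07) (the authors' deposited tables). The difference between the Cpt1a knockout and the Cpt2 group was small and close to the threshold, with a log2 fold change of 0.38 (adjusted p = 0.0430) in the authors' deposited table.

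Afmid (ENSMUSG00000017718, chromosome 11, 117825924 to 117839908, plus strand), the formamidase that releases kynurenine, was at 10.6, 14.6, 10.9 and 13.1 FPKM in livers 1 to 4. Livers 2 and 4 were above livers 1 and 3. The authors' deposited tables put it 1.88-fold lower in the Cpt1a knockout (log2 fold change −0.91, adjusted p = 3.10e-06) and 6.73-fold lower in the Cpt2 group (−2.75, adjusted p = 5.46e-29). Tk1, thymidine kinase, is transcribed the other way from the same start region and shares 83 exon bases with Afmid in GENCODE M21. Tk1 stood at −0.62 (adjusted p = 0.0646) and −2.95 (adjusted p = 6.78e-24) for the Cpt1a knockout and then the Cpt2 group (the authors' deposited tables). No source used here says whether the counting used strand, so reads in the 83 bases, 2.35% of the exon bases of Afmid, cannot be assigned with certainty. The gene model Gm20708 overlaps nearly all of Afmid on the same strand and shares 44.2% of its exon bases, and it had 0 counts in all 4 livers. The counter is not named, so whether reads in that stretch were counted for Afmid or dropped is unknown. The level of Afmid, its place in the order and its ratio to Tdo2 carry this limit.

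Kmo (ENSMUSG00000039783, chromosome 1, 175620381 to 175662116, plus strand), which hydroxylates kynurenine at the outer mitochondrial membrane, was at 66.4, 62.6, 47.9 and 51.8 FPKM in livers 1 to 4. Livers 1 and 2 were above livers 3 and 4. The fall of Kmo was 1.60-fold in the Cpt1a knockout (log2 fold change −0.68, adjusted p = 0.00672) and 1.97-fold in the Cpt2 group (−0.98, adjusted p = 1.18e-06) (the authors' deposited tables). In the direct comparison its log2 fold change was 0.28 (adjusted p = 0.154) in the authors' deposited table. Fh1, fumarate hydratase of the citric acid cycle, overlaps the start of the Kmo gene model on the opposite strand with no shared exon base. The overlap of 5255 bases does not reach the RefSeq start, which lies 11812 bases inside the model. Fh1 stood at −1.15 (adjusted p = 3.11e-05) and −1.10 (adjusted p = 2.57e-06) for the Cpt1a knockout and then the Cpt2 group (the authors' deposited tables). Opn3, an opsin gene 304 bases from Kmo on the opposite strand, stood at −0.68 (adjusted p = 0.144) in the Cpt1a knockout and was called lower in the Cpt2 group, at −1.06 (adjusted p = 4.77e-04; the authors' deposited tables).

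Kynu (ENSMUSG00000026866, chromosome 2, 43555329 to 43682715, plus strand), kynureninase, which cleaves hydroxykynurenine, was at 16.2, 16.6, 14.6 and 11.1 FPKM in livers 1 to 4. Liver 4 was the lowest. Among the members Kynu had the second largest fall in the Cpt1a knockout, 2.62-fold (log2 fold change −1.39, adjusted p = 3.17e-08), and it was 3.07-fold lower in the Cpt2 group (−1.62, adjusted p = 1.34e-12) (the authors' deposited tables). The log2 fold change in the direct comparison was 0.21 (adjusted p = 0.387) in the authors' deposited table.

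Haao (ENSMUSG00000000673, chromosome 17, 83831356 to 83846790, minus strand), the dioxygenase that opens the ring of hydroxyanthranilate, was at 75.5, 112, 143 and 121 FPKM in livers 1 to 4. Liver 1 was the lowest and liver 3 the highest, 1.89 times apart. Haao was 1.72-fold lower in the Cpt1a knockout (log2 fold change −0.79, adjusted p = 0.00211) and 4.54-fold lower in the Cpt2 group (−2.18, adjusted p = 1.10e-22) (the authors' deposited tables). It was 2.61-fold higher in the Cpt1a knockout than in the Cpt2 group (adjusted p = 1.36e-07) in the authors' deposited table.

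Acmsd (ENSMUSG00000026348, chromosome 1, 127729413 to 127767978, plus strand), the decarboxylase that draws the product of HAAO away from quinolinate and NAD, changed most. It was at 1.98, 3.38, 2.52 and 1.82 FPKM in livers 1 to 4. These values rest on 84, 144, 113 and 81 counts, with exact Poisson 95% intervals (counting error only) of 67.0 to 104, 121 to 170, 93.1 to 136 and 64.3 to 101. Liver 2 was above livers 1 and 4 by more than these intervals. Against the reference group Acmsd was 18.4-fold lower in the Cpt1a knockout (log2 fold change −4.20, adjusted p = 1.53e-08) in the authors' deposited table. The fall was 68.0-fold in the Cpt2 group (log2 fold change −6.09, adjusted p = 1.56e-18) in the authors' deposited table. The Cpt1a knockout kept 3.67-fold more transcript than the Cpt2 group (adjusted p = 3.56e-09) in the authors' deposited table. The spread of Acmsd within the reference group is not analysed here, so how far this fold rests on single mice there is unknown. By log2 fold change, Acmsd ranked 15 from the lowest among 17475 genes with an adjusted p (Cpt2 group, the authors' deposited table), and 41 among the 4364 listed genes with an adjusted p in that of the Cpt1a knockout. The antisense gene 2900009J06Rik shares 94 exon bases (3.32%) with Acmsd and had a mean of 0.25 counts in the livers. It was called lower in the Cpt1a knockout (log2 fold change −4.70, adjusted p = 0.0104) and stood at −1.82 in the Cpt2 group (adjusted p = 0.202; the authors' deposited tables).

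The protein-coding genes of at least 5 FPKM that came nearest to Acmsd in the pair of log2 fold changes against the reference group were Cyp2c70, Atp1b1 and Car3, out of 1756 genes listed in both tables. Cyp2c70, a cytochrome P450 of bile acid metabolism in mice, had −1.99 (adjusted p = 0.0130) and −4.26 (adjusted p = 1.27e-08) for the Cpt1a knockout and then the Cpt2 group (the authors' deposited tables). Atp1b1, a sodium pump subunit, had −2.94 (adjusted p = 2.08e-25) and −3.33 (adjusted p = 3.82e-31) there, and Car3, a carbonic anhydrase, −1.92 (adjusted p = 0.0523) and −4.04 (adjusted p = 8.12e-07) in the authors' deposited tables. Their Euclidean distances from Acmsd were 2.87, 3.03 and 3.07 log2 units, so no gene of at least 5 FPKM lay close to it. Acmsd itself, at 2.42 FPKM, is below that floor, so genes at its own level were not among the candidates.

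Qprt (ENSMUSG00000030674, chromosome 7, 127107114 to 127122226, minus strand), which takes quinolinate into NAD synthesis, was at 43.7, 35.2, 40.3 and 31.8 FPKM in livers 1 to 4. Livers 1 and 3 were above livers 2 and 4. The fall of Qprt was 1.63-fold in the Cpt1a knockout (log2 fold change −0.71, adjusted p = 3.44e-04) in the authors' deposited table. In the Cpt2 group its log2 fold change was −0.43 (adjusted p = 0.0839), and in the direct comparison −0.29 (adjusted p = 0.243), in the authors' deposited tables. Qprt thus passed in the Cpt1a knockout and not in the Cpt2 group, while the difference between these groups did not pass.

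Within each liver the FPKM of Qprt was 22.1, 10.4, 16.0 and 17.5 times that of Acmsd, the enzymes on either side of the branch. The mean log2 ratio of Acmsd to Qprt was −3.99 ± 0.45 (SD, n = 4), and all 4 livers had the same direction. The log2 fold change of Acmsd minus that of Qprt was −3.50 in the Cpt1a knockout and −5.66 in the Cpt2 group, computed from the authors' deposited tables. Haao was 46.7 times Acmsd (geometric mean, log2 ratio 5.55 ± 0.47, SD, n = 4), a ratio that rests on the gene length of Haao. Upstream, Kmo was 3.92 times Kynu (1.97 ± 0.22) and Tdo2 62.2 times Afmid (5.96 ± 0.36), and on the salvage side Nampt was 0.582 times Naprt (−0.78 ± 0.40; log2 ratio ± SD, n = 4 each). Transcript ratios say nothing of flux through the enzymes.

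**Figure D3:**
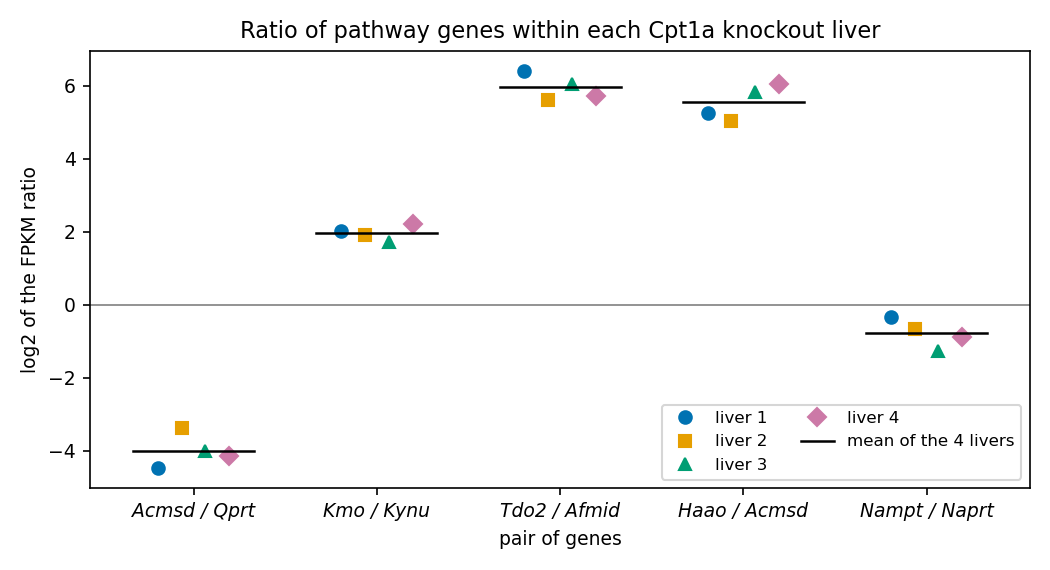
Log2 ratio of FPKM between 5 pairs of pathway genes within each of the 4 Cpt1a knockout livers (symbols) with the mean (line). Acmsd over Qprt and Nampt over Naprt are below 0 in all 4 livers, and Kmo over Kynu, Tdo2 over Afmid and Haao over Acmsd above 0.

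Naprt, Nampt and Nadsyn1 make NAD from its vitamin forms, Nadsyn1 also in the de novo route. Of these 3 none was called in the Cpt1a table and 1, Nampt, in that of the Cpt2 group. Over all genes 14.4% and 21.0% were called there, and for only 3 genes these counts are near those shares. Naprt (ENSMUSG00000022574, chromosome 15, 75890956 to 75894481, minus strand), which takes nicotinic acid into NAD synthesis, was at 36.4, 36.2, 51.9 and 41.2 FPKM in livers 1 to 4, with liver 3 the highest. It is not among the genes of the Cpt1a table, which stops at an unadjusted p of 0.05. Summed from the other tables, its log2 fold change was −0.19. In the Cpt2 group it had −0.21 (adjusted p = 0.481) and in the direct comparison 0.02 (adjusted p = 0.958) in the authors' deposited tables. Naprt shares 277 exon bases (11.8%) with Eef1d on the same strand, so reads in that stretch are uncertain. Mroh6, 2185 bases away on the same strand, was not called in the Cpt2 group (adjusted p = 0.237) in the authors' deposited table.

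Nampt (ENSMUSG00000020572, chromosome 12, 32819545 to 32853349, plus strand), the rate-limiting enzyme of salvage from nicotinamide, was at 29.1, 22.9, 21.4 and 22.6 FPKM in livers 1 to 4. Liver 1 was the highest. Nampt too is not listed in the Cpt1a table, and its summed log2 fold change was −0.01. The fall of Nampt was 1.49-fold in the Cpt2 group (log2 fold change −0.58, adjusted p = 0.0259), and the Cpt1a knockout was 1.48-fold above the Cpt2 group (adjusted p = 0.0175) (the authors' deposited tables). The noncoding gene Gdap10 lies inside Nampt on the same strand with no shared exon base and stood at 1.81 (adjusted p = 9.95e-05) and −0.87 (adjusted p = 0.105) for the Cpt1a knockout and then the Cpt2 group (the authors' deposited tables).

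Nadsyn1 (ENSMUSG00000031090, chromosome 7, 143795584 to 143822849, minus strand), NAD synthetase, makes the last step of the routes through QPRT and NAPRT. It was at 8.26, 7.60, 8.69 and 8.08 FPKM in livers 1 to 4, the smallest spread among the members (1.14 times from lowest to highest). Its log2 fold change was −0.38 in the Cpt1a knockout (adjusted p = 0.106) and −0.05 in the Cpt2 group (adjusted p = 0.873) (the authors' deposited tables). It was 1.27-fold lower in the Cpt1a knockout than in the Cpt2 group (adjusted p = 0.0330) in the authors' deposited table. Dhcr7, the last enzyme of cholesterol synthesis, starts 295 bases away on the opposite strand, at −1.13 (adjusted p = 3.53e-05) and −0.47 (adjusted p = 0.133) for the Cpt1a knockout and then the Cpt2 group (the authors' deposited tables).

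Beyond the 10 members, 55 other genes around the pathway were listed in 9 groups, and 44 of them reached a mean of 1 FPKM in the Cpt1a knockout livers. Of the 55, 13 were lower and 0 higher in the Cpt1a knockout in the authors' deposited table (at an unadjusted p below 0.05, 16 and 5), against 7.60% lower and 6.81% higher over all genes. The Cpt2 group had 16 lower and 8 higher in the authors' deposited table, against 10.7% and 10.3% over all genes. The 9 groups are small, from 3 to 16 genes, and the 1 lower among 16 NAD consumers in the Cpt1a knockout is near the share over all genes. The median log2 fold change of the 51 with a value was −0.13 in the Cpt1a knockout, as summed from the other tables, and −0.27 in the Cpt2 group.

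**Figure D4:**
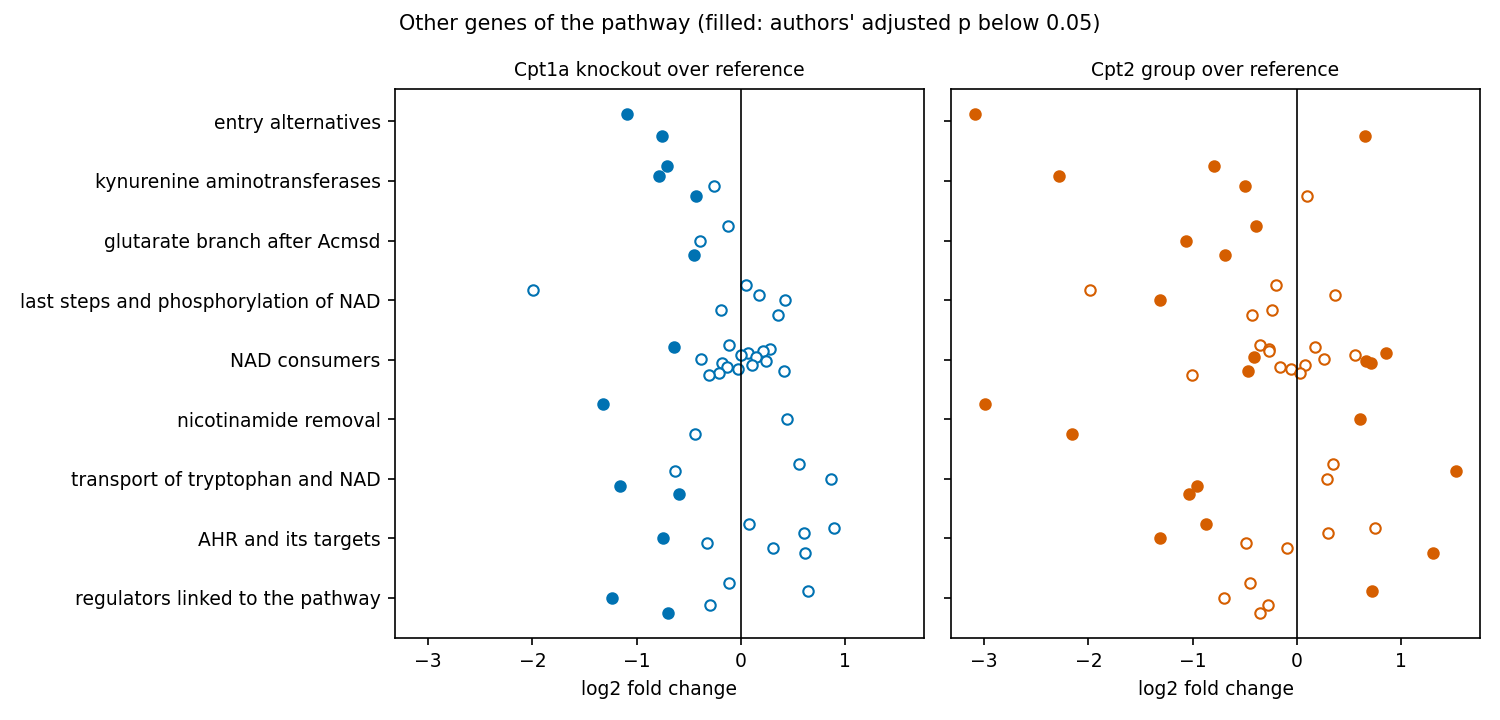
Authors' log2 fold change of the other pathway genes by group, in the Cpt1a knockout (left) and the Cpt2 group (right) against the reference group. Filled points have an adjusted p below 0.05, and unlisted genes at left are drawn at the sum of the other comparisons. All 13 filled points at left are below 0, and at right 16 are below and 8 above 0.

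Of the other enzymes that use tryptophan, Ido2, a relative of TDO2 by reaction, was at 9.94 ± 1.89 FPKM (SD, n = 4) in the knockout livers. It was lower in both groups in the authors' deposited tables, with log2 fold changes of −1.10 (adjusted p = 4.06e-06) in the Cpt1a knockout and −3.09 (adjusted p = 1.72e-23) in the Cpt2 group. The direct comparison gave 1.98 for Ido2 (adjusted p = 3.67e-10) in the authors' deposited table. Tph1 and Tph2, which start serotonin synthesis, had 0 counts in all 4 livers. Ddc, aromatic amino acid decarboxylase, split, at −0.75 (adjusted p = 7.42e-04) in the Cpt1a knockout and 0.65 (adjusted p = 0.00432) in the Cpt2 group, and the direct comparison gave −1.42 (adjusted p = 1.36e-10) in the authors' deposited tables.

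Kynurenine aminotransferases lead kynurenine to kynurenic acid. Of 4, 3 were lower in the Cpt1a knockout (Aadat at −0.71, Kyat1 at −0.79 and Got2 at −0.43) in the authors' deposited table. The Cpt2 group had 3 lower as well (Aadat at −0.80, Kyat1 at −2.28 and Kyat3 at −0.50) in the authors' deposited table. Kyat1 was higher in the Cpt1a knockout than in the Cpt2 group by 1.48 on the log2 scale (adjusted p = 5.42e-24), and Got2, the mitochondrial aspartate aminotransferase, lower, with −0.54 (adjusted p = 3.89e-06), in the authors' deposited table. In the livers Got2 was at 80.0 ± 5.09, Aadat at 44.1 ± 7.74, Kyat1 at 25.7 ± 2.55 and Kyat3 at 14.4 ± 4.17 FPKM (SD, n = 4 each).

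Beyond ACMSD, carbon flows through Aldh8a1, Dhtkd1 and Gcdh towards glutaryl-CoA and its breakdown. All 3 were lower in the Cpt2 group (−0.39, −1.06 and −0.69), and 1, Gcdh, in the Cpt1a knockout (−0.45, adjusted p = 0.0344), in the authors' deposited tables. Dhtkd1 had −0.40 in the Cpt1a knockout (adjusted p = 0.136) in the authors' deposited table. Gcdh was at 145 ± 21.9, Aldh8a1 at 58.1 ± 8.16 and Dhtkd1 at 18.5 ± 1.28 FPKM (SD, n = 4 each) in the knockout livers.

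Of 7 genes for the last steps and the phosphorylation of NAD, 0 were lower or higher in the Cpt1a knockout in the authors' deposited table (0 also at an unadjusted p below 0.05). The Cpt2 group had 1 lower, Nmrk1, a nicotinamide riboside kinase, at −1.31 (adjusted p = 2.15e-04) in the authors' deposited table. Nmrk1 was at 14.1 ± 3.28 FPKM (SD, n = 4) and was higher in the Cpt1a knockout than in the Cpt2 group by 1.73 (adjusted p = 2.78e-16) in the authors' deposited table. Nadk2, the mitochondrial NAD kinase, was higher there by 0.79 (adjusted p = 1.65e-10) in the authors' deposited table. The cytosolic kinase Nadk, at 66.9 ± 1.65 FPKM (SD, n = 4), had −0.24 in the Cpt2 group (adjusted p = 0.142) and 0.05 in the direct comparison (adjusted p = 0.781) in the authors' deposited tables.

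Enzymes that consume NAD, the sirtuins, PARPs and glycohydrolases, numbered 16. In the Cpt1a knockout 1 was lower, Sirt2 (−0.64, adjusted p = 0.00956), in the authors' deposited table. Sirt7 (−0.41) and Cd38 (−0.46), an NAD glycohydrolase, were lower in the Cpt2 group, and Sirt5 (0.86), Parp2 (0.67) and Parp3 (0.71) higher, in the authors' deposited table. In the direct comparison, Cd38 was higher in the Cpt1a knockout by 0.87, Sirt3 by 0.54 and Sirt7 by 0.56 in the authors' deposited table. Sirt2 (−0.82), Sirt5 (−0.79), Parp1 (−0.65) and Parp3 (−0.90) were lower in that comparison in the authors' deposited table. Sirt3, the main mitochondrial deacetylase, was the most abundant of the list at 14.3 ± 1.64 FPKM, and Sirt7 was at 10.5 ± 2.16 (SD, n = 4 each).

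Nicotinamide that is not salvaged is methylated by NNMT, and the product is oxidised by aldehyde oxidases. Nnmt was at 88.0, 129, 134 and 53.6 FPKM in livers 1 to 4, with liver 4 the lowest. It was lower in the Cpt1a knockout (log2 fold change −1.32, adjusted p = 6.01e-04) and in the Cpt2 group (−3.00, adjusted p = 1.43e-08) (the authors' deposited tables), and the direct comparison gave 1.67 (adjusted p = 0.00495). Aox3, at 22.9 ± 6.88 FPKM (SD, n = 4), was lower in the Cpt2 group (−2.16, adjusted p = 1.42e-08), and Aox1, at 14.7 ± 3.53, higher (0.61, adjusted p = 0.0127), in the authors' deposited table. In the Cpt1a knockout Aox1 had 0.44 (adjusted p = 0.190) in the authors' deposited table. The direct comparison gave 1.72 for Aox3 (adjusted p = 9.66e-07) and −0.18 for Aox1 (adjusted p = 0.530) in the authors' deposited table.

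Among 5 transporters, Slc16a10, an aromatic amino acid carrier, was lower in the Cpt1a knockout (−1.16, adjusted p = 1.08e-04) and in the Cpt2 group (−0.96, adjusted p = 4.09e-05) (the authors' deposited tables). Slc25a51, the mitochondrial NAD carrier, was lower at −0.59 (adjusted p = 0.0482) and −1.03 (adjusted p = 5.84e-06) there, from 29.7 ± 6.23 FPKM (SD, n = 4) in the knockout livers, in the authors' deposited tables. Slc3a2, the heavy chain of tryptophan and other amino acid carriers, was higher in the Cpt2 group (1.52, adjusted p = 2.04e-08) and had −0.63 in the Cpt1a knockout (adjusted p = 0.0709) in the authors' deposited tables. The direct comparison gave −2.17 for Slc3a2 (adjusted p = 5.61e-25) in the authors' deposited table.

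Kynurenine and its products can act on AHR. Of 7 genes for AHR and its targets, 1 was lower in the Cpt1a knockout, Cyp1a2 (−0.74, adjusted p = 8.63e-04), which also fell in the Cpt2 group (−1.31, adjusted p = 1.43e-15) (the authors' deposited tables). Ahr itself was lower in the Cpt2 group (−0.87, adjusted p = 2.07e-07) and Nqo1 higher (1.30, adjusted p = 5.39e-05) in the authors' deposited table. The direct comparison gave 0.95 for Ahr (adjusted p = 5.31e-07) and −0.70 for Nqo1 (adjusted p = 5.13e-04) in the authors' deposited table. Ahrr, Cyp1a1 and Cyp1b1 stayed at or below 0.539 FPKM on average in the knockout livers. Among 5 regulators, Ppargc1a (−1.23, adjusted p = 0.00264) and Hnf4a (−0.70, adjusted p = 0.0166) were lower in the Cpt1a knockout, and Ppara was higher in the Cpt2 group (0.72, adjusted p = 0.0386) (the authors' deposited tables). Nr3c1, the glucocorticoid receptor, at 10.1 ± 2.05 FPKM (SD, n = 4), had −0.45 in the Cpt2 group (adjusted p = 0.133) in the authors' deposited table.

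Cell type markers were counted beside the shares of all genes called lower and higher in the authors' deposited tables. These were 7.60% and 6.81% in the Cpt1a knockout, 10.7% and 10.3% in the Cpt2 group, and 14.6% and 14.2% in the direct comparison. In lists this small a count of 1 is near these shares. Of 7 hepatocyte markers found in the files, 5 were lower and 0 higher in the Cpt1a knockout (0 also at an unadjusted p below 0.05). Their median log2 fold change was −1.24 as summed from the other tables. The Cpt2 group had 5 lower and 0 higher too, with a median of −0.86, and the direct comparison had 1 higher and 1 lower in the Cpt1a knockout, with a median of 0.16, in the authors' deposited tables. Apoa1 was called in neither comparison with the reference group. Their summed level ran from 18555 to 26990 FPKM over the 4 livers and none was at 0. In bulk liver, fewer hepatocytes and less RNA per hepatocyte cannot be told apart, and the part of the hepatocyte markers in the falls was not tested. Of 8 Kupffer cell and macrophage markers, at a summed 115 to 151 FPKM, 0 were lower and 1 higher in the Cpt1a knockout in the authors' deposited table. At an unadjusted p below 0.05 the counts were 0 and 4, and the median log2 fold change was 0.52 as summed from the other tables. In the Cpt2 group 3 were lower and 1 higher, with a median of −0.49. In the direct comparison 7 were higher and 1 lower in the Cpt1a knockout (the authors' deposited tables). Of 4 red blood cell genes, at a summed 160 to 497 FPKM, 3 were lower in the Cpt2 group and 0 were called in the Cpt1a knockout (0 also at an unadjusted p below 0.05), in the authors' deposited tables. Endothelial markers summed to 39.7 to 42.4 FPKM with 1 of 5 lower in the Cpt2 group, and stellate cell markers to 6.16 to 7.75 FPKM with 1 of 5 higher in the Cpt1a knockout, in the authors' deposited tables. The part of any of these cells in the results was not tested. The lists for bile duct and lymphocytes had no member at a mean of 1 FPKM, and that for neutrophils had 1 of 4. In these 3 lists 0 genes were called in the Cpt1a knockout in the authors' deposited table. At an unadjusted p below 0.05, 2 bile duct genes were lower there, and 2 lymphocyte and 2 neutrophil genes higher.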

How the data were processed

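RNA-seq of 4 livers of 1 group was analysed. Per the submitters' processing notes, HISAT2 and the mouse builds GRCm38 and mm10 were used. No source used here names the counter, the annotation release or the use of strand. The deposited tables hold raw read counts per gene and the authors' FPKM. A further 3 deposited tables hold the authors' log2 fold changes, p-values and adjusted p-values, with no test named. Genes with an adjusted p of exactly 1 were taken as left out of the adjustment. The Cpt1a table is cut at an unadjusted p of 0.05 (4461 genes), and its adjusted values match an adjustment over about 16862 genes. Where a gene is missing there, the sum of the other 2 log2 fold changes was used. Medians for the Cpt1a knockout use this sum for every gene, listed or not. Across 4424 listed genes Pearson's r between the sum and the deposited value was 0.999989. The 3 comparisons share their groups, so a close match is built in.

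With 1 group, no test between groups could be fitted, so calls are the authors' (adjusted p below 0.05), with no SD or n. Genotype and any batch cannot be told apart. The 8 per-sample columns of no sample here, and the group means in the comparison tables, were not used. FPKM means and SDs, exact Poisson intervals, TPM, and library sizes by edgeR 4.0.16 (TMM) and DESeq2 1.42.0 (size factors) were computed in Python 3.11.15 and R 4.3.3. The adjustment was tested on simulated data. Genes within 3000 bases of a member count as neighbours, and exon overlaps come from GENCODE M21. Coordinates and gene length of 9 members are the same there, and those of Haao differ. Members and lists were chosen with earlier results of these data known. Named are the members, list genes called in any comparison or at 10 FPKM or more, neighbours, and the 3 genes nearest to the member with the largest change. Alternatives were other thresholds, scalings and leaving out each liver. The promoter window of 1 member is not reported here.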

Additional observations from a re-analysis of the deposited data

Results flagged for a closer look

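In a group of 4, a liver was looked for whose gap to its nearest neighbour took a share of the range above Dixon's 95% critical value. Among 43 genes checked, Tdo2 and Nadk2 passed, and chance flags about 1 in 20. For Tdo2 the share was 0.859, with liver 1 at 903 FPKM and the other livers between 699 and 728. For Nadk2, the mitochondrial NAD kinase, it was 0.851, with liver 1 at 52.0 FPKM and the others between 46.5 and 47.3.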

How the results depend on the processing

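Where a log2 fold change of 1 or more in size was also required, the members called lower were 2 in the Cpt1a knockout and 4 in the Cpt2 group against the reference group, in place of 7 each. Between the Cpt1a knockout and the Cpt2 group they were then 3 higher and 0 lower, in place of 5 and 1, and the same 3 and 0 at an adjusted p below 0.01. Other pathway genes called lower in the Cpt1a knockout went from 13 to 8 at an adjusted p below 0.01 and to 4 at that fold. In the Cpt2 group they went from 16 lower and 8 higher to 8 and 2 at that fold. Between the Cpt1a knockout and the Cpt2 group they went from 12 higher and 8 lower of the 55 to 5 and 2. Over all genes 14.2% were called higher and 14.6% lower in that comparison at an adjusted p below 0.05. The shares over all genes at the stricter settings were not computed. A mean count of at least 10 kept the counts of members in the 3 comparisons within 1.5 times. So did adjustment over all genes with a p-value in the 2 comparisons with the Cpt2 group, and this could not be run for the partial Cpt1a table. The median level of the members was 30.9 FPKM, 80.8 as TPM, 34.6 with TMM library sizes and 34.6 with median-of-ratios size factors. The order of the 10 genes was the same without each liver. It was also the same by TPM, which rescales each liver as a whole and cannot change the order within it. Without 1 liver, levels were 0.868 to 1.11 times the full means. The mean log2 ratios ranged from −4.20 to −3.84 (Acmsd to Qprt), 5.38 to 5.71 (Haao to Acmsd), 1.89 to 2.06 (Kmo to Kynu), 5.81 to 6.07 (Tdo2 to Afmid) and −0.93 to −0.62 (Nampt to Naprt). The SD of log2(FPKM + 1) fell by more than 1.5 times for 6 members without 1 liver: without liver 1 for Tdo2 (0.17 to 0.03), Nampt (0.19 to 0.05) and Haao (0.39 to 0.18), without liver 2 for Acmsd (0.29 to 0.17), without liver 3 for Naprt (0.24 to 0.10) and without liver 4 for Kynu (0.25 to 0.09). With the GENCODE M21 length of Haao, an alternative chosen after seeing the data, 6 of the 10 genes kept their place. No call changed sign. No paired analysis was possible because the series holds 1 group. Acmsd, at 81 to 144 counts, is the member that depth limits most.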
